A study of Mus musculus with 4 samples.

Results

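The genes described here are the AP-1 family and other classical immediate early genes in lungs that carried mouse triple-negative breast cancer metastases. They were 10 genes taken by symbol from the 56748 rows of the deposited gene count table: the Fos family (Fos, Fosb, Fosl1 and Fosl2), the Jun family (Jun, Junb and Jund), and Egr1, Atf3 and Ier2. All 10 had 1 row in the table and all passed the filter on low counts. BALB/cJ mice, female and immunocompetent, received 4T1-FLuc cells through the tail vein. 4T1 is a mouse mammary carcinoma line, here marked with firefly luciferase. Once metastasis was detected, mice received saline (2 libraries) or cmLumiOpto/PARPi (2 libraries) for 3 weeks, and bulk RNA of the metastatic lung was sequenced. cmLumiOpto is an AAV carried in exosomes that bear an antibody to CD276. Its cargo, a mitochondrial light-gated channel (CoChR) with NanoLuc luciferase, is driven by a cfos promoter and activated by the luciferin ViviRen. PARPi is olaparib, an inhibitor of the DNA repair enzyme PARP. All treated libraries received vector, luciferin and olaparib together, so their parts cannot be told apart. The titles call the controls saline and the treatment field calls them PBS. The labels describe the material as 4T1 tumor cells, whereas the methods describe dissociated lung tissue with metastasis.

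AP-1 is a dimer of a Jun protein with a Fos, Jun or ATF protein, joined through leucine zippers, and it binds the TGAGTCA site. Growth factors, cytokines, calcium and stress act through MAP kinases to switch on many of these genes within minutes and without new protein synthesis. The short-lived mRNAs of such genes are then cleared rapidly. In carcinoma cells AP-1 is known for its links to proliferation and invasion, and in many tissues the same genes respond to dissociation.

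Few exons and unstable mRNAs are known features of the class, and the annotated transcripts were examined for exon number and for a decay-linked pattern. Both were read in the GENCODE M21 annotation from 1 coding transcript per gene, the one with the longest 3′ UTR. In that transcript each of the 10 genes had 4 or fewer exons. The same held for 23.1% of the 13372 tested genes with an annotated 3′ UTR (median 8 exons). Jun, Junb, Jund and Ier2 had 1 exon. The AU-rich pentamer ATTTA, a letter pattern tied to mRNA decay, occurred 4.91 times per kb of 3′ UTR in Fos, 4.12 in Junb and 3.24 in Jun, against a median of 1.30 over tested genes. Atf3 had 2.53 per kb, Jund, Fosl2, Egr1 and Fosl1 had 1.57 to 1.88, Fosb had 0.434, below the median, and Ier2 had none. The longer pattern TTATTTATT was present in Fos and Fosl2, and in 8.02% of the tested genes.

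The start regions of 4 members are shown because Atf3 and Fosl2 had the smallest p-values of the 10, Fos gave the family its name, and Junb had the highest level. Each window runs 5′ to 3′ from 250 bases before to 50 bases after the annotated start (RefSeq, GRCm38.p6). Atf3 is at chr1:191183284-191183583 on the minus strand, Fosl2 at chr5:32136222-32136521 on the plus strand, Fos at chr12:85473640-85473939 on the plus strand and Junb at chr8:84978699-84978998 on the minus strand. Capitals mark letter patterns found on either strand. TGACG is part of a cAMP response element. TATAAA is a known TATA box sequence. TGATGCAA is the core of an amino acid response element.
Atf3: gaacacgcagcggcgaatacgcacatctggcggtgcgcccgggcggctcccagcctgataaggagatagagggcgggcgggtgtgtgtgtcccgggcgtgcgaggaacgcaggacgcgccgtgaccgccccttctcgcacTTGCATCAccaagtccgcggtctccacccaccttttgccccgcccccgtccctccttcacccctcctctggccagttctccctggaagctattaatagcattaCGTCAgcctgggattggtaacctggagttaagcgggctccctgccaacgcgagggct
Fosl2: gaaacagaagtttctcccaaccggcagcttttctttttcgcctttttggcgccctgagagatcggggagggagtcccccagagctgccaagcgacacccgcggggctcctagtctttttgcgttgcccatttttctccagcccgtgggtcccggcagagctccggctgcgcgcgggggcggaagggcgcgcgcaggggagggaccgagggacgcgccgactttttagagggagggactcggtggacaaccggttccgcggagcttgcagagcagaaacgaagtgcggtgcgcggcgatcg
Fos: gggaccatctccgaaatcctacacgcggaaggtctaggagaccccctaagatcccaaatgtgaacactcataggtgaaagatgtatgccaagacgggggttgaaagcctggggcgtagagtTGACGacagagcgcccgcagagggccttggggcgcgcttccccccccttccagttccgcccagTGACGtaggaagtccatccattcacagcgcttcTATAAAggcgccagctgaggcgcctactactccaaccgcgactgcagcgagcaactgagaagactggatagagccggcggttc
Junb: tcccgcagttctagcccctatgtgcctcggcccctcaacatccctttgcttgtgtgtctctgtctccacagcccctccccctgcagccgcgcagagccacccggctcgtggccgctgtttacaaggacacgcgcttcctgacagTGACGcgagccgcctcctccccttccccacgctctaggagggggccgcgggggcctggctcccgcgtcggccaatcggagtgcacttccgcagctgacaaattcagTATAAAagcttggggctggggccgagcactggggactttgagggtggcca

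RefSeq windows were matched for 7 of the 10 members, and those of Egr1, Fosl1 and Ier2 were not. TGACG was present in 4 of the 7 windows (Atf3, Fos, Fosb and Junb) and in 20.8% of 32851 windows of all genes. In Fos it began at positions −129 and −66 from the start, with a TATAAA at −33. The TATAAA of Junb began at position 1, on the annotated start itself. Atf3 was the member with TGATGCAA, found as TTGCATCA from −110, and 0.895% of all windows held it. The AP-1 site TGAGTCA (5.2% of all windows), the full element TGACGTCA (1.79%), which contains TGACG, and the CArG box bound by SRF (1.63%) were not found in the 7 windows. These matches describe letters only, and sequence beyond 250 bases before or 50 bases after the start was not searched. Fosl2 and Jund had none of the patterns in their windows, and neither had Jun.

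Libraries held between 15263375 and 16755228 counts, so 3 counts corresponded to 0.173 to 0.204 CPM (counts scaled to a common normalized library size). Replicates differed by more than sampling noise (chi-square per degree of freedom 24.1 for saline and 41.1 for treated), and no source states that they came from separate mice. The 10 markers of 4T1 epithelial cells were all above the floor of 3 counts in every library. Their summed level was 3194 and 3517 CPM in saline and 2881 and 3971 CPM in treated libraries, and these ranges overlapped. The lung was also present. Summed alveolar type 2 markers, led by Sftpc, were 1847 and 489 CPM in saline against 9094 and 3115 CPM in treated libraries. Among these 10 markers, 8 were above the saline range in both treated libraries, beside 27.4% of all tested genes. Abca3 was below it, at 147 and 129 CPM in saline against 125 and 94.0 CPM in treated libraries, and Lyz1 overlapped. Airway markers, led by Scgb1a1, were 1520 and 468 CPM against 6106 and 3593 CPM, with Dnah5 at 0 in some library. Fibroblast markers, led by Col1a1, summed to 5199 and 3600 CPM against 1765 and 1933 CPM. Of these 10 markers, 7 were below the saline range in both treated libraries, beside 27.8% of all tested genes. Dpt and Tcf21 went the other way and were above that range in both, beside 27.4% of all tested genes. In bulk tissue, a smaller share of a cell type and less RNA per cell cannot be told apart.

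No member passed an adjusted p of 0.05 in edgeR's quasi-likelihood test, and neither did any other gene (0.00% of 15167 tested, lowest adjusted p = 0.138). By the unadjusted p with a threshold of 0.05, 1 member was higher in treated libraries (Atf3), beside 9.21% of all tested genes. In the other direction 2 members were lower (Fosl1 and Fosl2), beside 12.0% of all tested genes. The 2 groups did not overlap for 1 member that was higher, beside 27.4% of all tested genes, and for 3 that were lower (Fosl1, Fosl2 and Jund), beside 27.8%. The remaining 6 members had overlapping groups. The median log2 fold change was −0.10 over members and 0.02 over all tested genes. At the unadjusted threshold 3221 genes were counted in all, and at an adjusted p of 0.05 DESeq2 called 981 genes and edgeR's exact test 794.

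**Figure D1:**
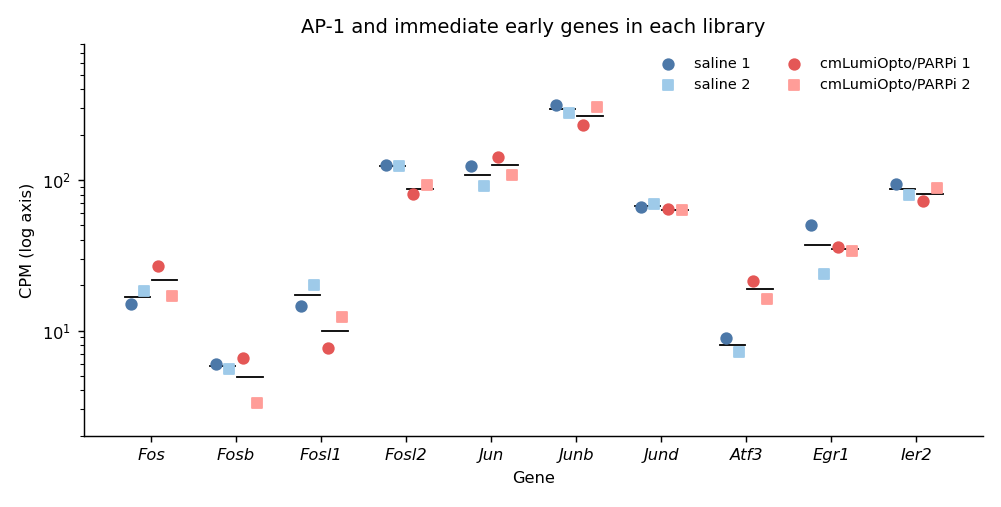
Level of each of the 10 genes in CPM (log axis), with 1 point per library, for 2 saline and 2 cmLumiOpto/PARPi libraries. Atf3 lay at 8.91 and 7.15 CPM in saline and at 21.5 and 16.2 CPM in treated libraries, whereas most other genes overlapped.

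Atf3 encodes a stress-inducible ATF protein that pairs with Jun and often represses its targets (ENSMUSG00000026628, chromosome 1, 190902493-190950236, minus strand, mm39 per the labels). Its level was 8.91 and 7.15 CPM in saline and 21.5 and 16.2 CPM in treated libraries. The groups did not overlap, and the lower treated value came from replicate 2. The means were 8.03 ± 1.24 CPM in saline and 18.9 ± 3.70 CPM in treated libraries (SD, n = 2 each). The log2 fold change was 1.23 (SE 0.26, 95% interval 0.59 to 1.87), or a fold of 2.35 (1.51 to 3.66). In edgeR its unadjusted p was 0.0035, with an adjusted p of 0.138. The gene ranked 373 of 15167 by p. It rested on 142 and 105 counts in saline and 373 and 270 in treated libraries. Atf3 passed an adjusted p of 0.05 in DESeq2 and in edgeR's exact test, and its adjusted p ranged from 0.00139 to 0.427 over 15 alternatives. With an offset for gene length in the edgeR fit its log2 fold change was 0.955, with an unadjusted p of 0.00647 and an adjusted p of 0.290. Alveolar and airway marker sums were also higher in both treated libraries, although the alveolar marker Abca3 was lower. The part of these sums in the difference was not tested.

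Fosl2 encodes FRA-2, a Fos protein without the strong activation domain of c-Fos (chromosome 5, 32293145-32315186). It was nearly equal in saline at 125 and 124 CPM, and it was 80.3 and 93.2 CPM in treated libraries. Both treated values lay below both saline values. This was a log2 fold change of −0.52 (SE 0.14, 95% interval −0.86 to −0.18), with an unadjusted p of 0.00941 and an adjusted p of 0.145. Long genes were lower on the whole in treated libraries (Spearman rho of log2 fold change and gene length −0.37 across 15167 genes, which are not independent replicates). With an offset for gene length the log2 fold change of Fosl2 was −0.32, with an unadjusted p of 0.115 and an adjusted p of 0.438. The fibroblast marker sum, led by Col1a1, was lower in the same libraries, although Dpt and Tcf21 were higher, and its part was not tested.

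Fosl1 encodes FRA-1, the Fos protein most often linked to invasive breast carcinoma (chromosome 19, 5497575-5505974). Its level was 14.5 and 20.0 CPM in saline and 7.60 and 12.3 CPM in treated libraries. The groups did not overlap, but saline replicate 1 and treated replicate 2 were close to each other. Its log2 fold change was −0.79 (SE 0.32, 95% interval −1.58 to −0.0011), with an unadjusted p of 0.0498 and an adjusted p of 0.235. Without saline replicate 2 the unadjusted p was 0.190, and without treated replicate 1 it was 0.181. On the opposite strand Fosl1 overlaps Ccdc85b, which had 568 to 857 counts per library against 132 to 293 for Fosl1. Whether counting used strand is not given in the sources used here.

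Fos encodes c-Fos, the founding partner of Jun (ENSMUSG00000021250, chromosome 12, 85520664-85524047, plus strand). Its level was 15.1 and 18.4 CPM in saline and 26.8 and 16.8 CPM in treated libraries. The high value came from treated replicate 1, and replicate 2 lay between the saline libraries. The log2 fold change was 0.38 (SE 0.28, 95% interval −0.30 to 1.07), with adjusted p = 0.459, and it was 0.11 with the gene length offset. Without treated replicate 1 it was 0.011, and without treated replicate 2 it was 0.66 with an unadjusted p of 0.0483. The vector carried a cfos promoter, and transcripts of the vector were not analysed here. Fosb, whose product is a further activating Fos protein, had 6.02 and 5.59 CPM in saline and 6.56 and 3.31 CPM in treated libraries, from 55 to 114 counts. Its log2 fold change of −0.23 (SE 0.41) had an adjusted p of 0.773 and an interval from −1.25 to 0.79.

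The Jun proteins can pair with each other or with any Fos protein. Jun, which encodes c-Jun, was 124 and 90.8 CPM in saline and 142 and 109 CPM in treated libraries. In each group replicate 1 was the higher, and the groups overlapped. The log2 fold change was 0.22 (SE 0.21, 95% interval −0.30 to 0.74, adjusted p = 0.582). Junb, which encodes a Jun protein often opposed to c-Jun in proliferation, was 314 and 280 CPM in saline and 231 and 303 CPM in treated libraries. Treated replicate 1 was the lowest of the 4 libraries and replicate 2 lay within the saline range. The log2 fold change was −0.15 (SE 0.18, 95% interval −0.60 to 0.29, adjusted p = 0.659). Junb overlaps the more abundant Prdx2 on the opposite strand, which had 6678 and 6964 counts in saline and 8865 and 9578 counts in treated libraries. Jund, the most constantly expressed Jun gene in most tissues, was 66.0 and 69.2 CPM in saline and 63.7 and 62.8 CPM in treated libraries. The 2 groups of Jund did not overlap, yet the log2 fold change was small at −0.10 (SE 0.13, 95% interval −0.41 to 0.22, adjusted p = 0.699). With the gene length offset it was −0.42, with an unadjusted p of 0.0407 and an adjusted p of 0.332. The offset also moved Junb to −0.40, with an unadjusted p of 0.110.

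Egr1 and Ier2 are immediate early genes outside AP-1. Egr1, a zinc finger factor activated by SRF and ELK proteins, was 49.9 and 23.6 CPM in saline and 35.9 and 33.5 CPM in treated libraries. The saline libraries differed by 2.11-fold and both treated libraries lay between them. The log2 fold change was −0.08 (SE 0.35, 95% interval −0.94 to 0.77, adjusted p = 0.914). It was 0.54 without saline replicate 1 and −0.54 without saline replicate 2, with unadjusted p of 0.0489 and 0.0358, so 1 library decided its sign. Ier2, a nuclear regulator of less settled function, was 94.1 and 79.0 CPM in saline and 73.0 and 88.9 CPM in treated libraries. Its groups overlapped, with a log2 fold change of −0.10 (SE 0.16, 95% interval −0.50 to 0.31, adjusted p = 0.761). With the gene length offset it was −0.43, with an unadjusted p of 0.0568.

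**Figure D2:**
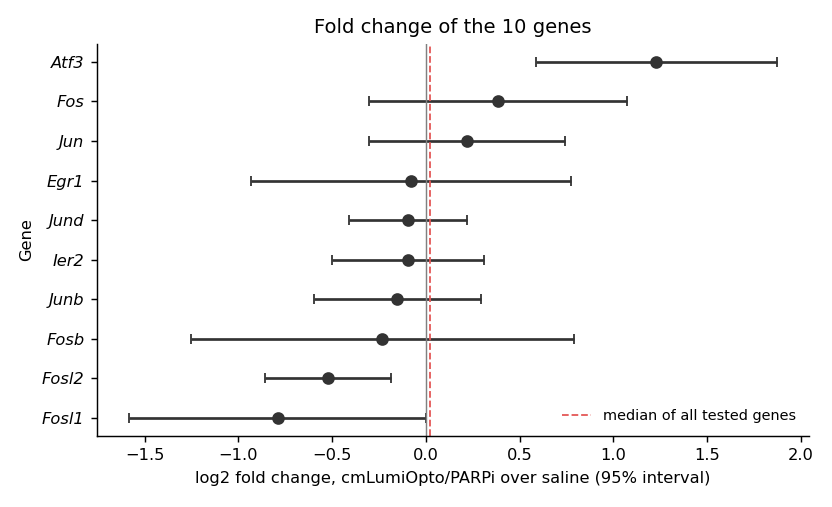
Log2 fold change of each of the 10 genes, treated over saline, from edgeR's quasi-likelihood fit, with 95% intervals. The intervals of Atf3, Fosl2 and Fosl1 lay on 1 side of 0 before adjustment, that of Fosl1 reaching −0.0011, and the other 7 included 0.

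Per kb of deposited gene length the mean levels ran from 0.860 CPM per kb for Fosb to 123 CPM per kb for Junb. Junb was the highest over the 4 libraries, followed by Ier2 at 55.0 CPM per kb, and neither overlapped the range of the next gene. Jund (39.2 CPM per kb) and Jun (36.5 CPM per kb) had overlapping ranges. Fosl2, Fos, Egr1, Fosl1 and Atf3 followed at 10.9, 8.19, 7.97, 6.70 and 6.24 CPM per kb, and the range of each overlapped that of the next. Fosb stood below the range of Atf3.

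The makeup of AP-1 mRNA was compared as the share of each Fos and Jun gene in their summed CPM per kb. The Jun family held most of it in every library, and the Fos family held 11.3% and 14.1% in saline and 11.8% and 10.3% in treated libraries. These shares overlapped, with a difference of −1.65 percentage points (exact two-sided permutation test, p = 0.667, where the smallest p that 4 libraries allow is 0.333). Without division by length the difference was −4.58 points and the groups did not overlap (exact permutation p = 0.333). Junb alone held 56.3% and 54.5% in saline and 48.4% and 58.0% in treated libraries. Within the Fos family, Fosl2 held 5.32% and 5.76% in saline and 3.99% and 4.25% in treated libraries, whereas Fos held 2.64% and 3.51% against 5.48% and 3.16%. Fosl1 held 2.95% and 4.41% in saline and 1.80% and 2.68% in treated libraries. Fosl1 and Fosl2 shares of the 2 groups did not overlap, and Fos and Fosb shares did. The summed CPM of the 10 members was 818 and 718 in saline (768 ± 70.7, SD, n = 2) and 688 and 739 in treated libraries (713 ± 35.8, SD, n = 2), and these overlapped.

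**Figure D3:**
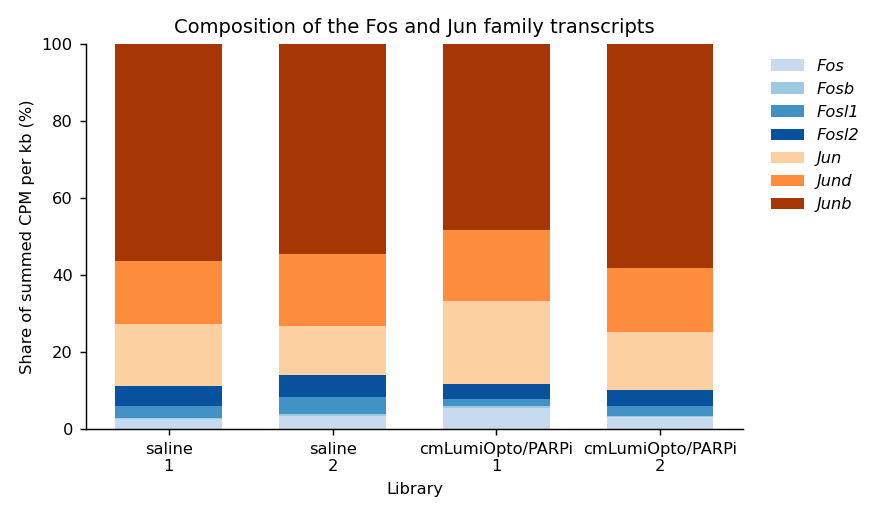
Share of each Fos and Jun family gene in the summed CPM per kb of the 7 genes (%), as 1 stacked bar per library. Junb made up 48.4% to 58.0% of each bar, and the 4 Fos family genes together 10.3% to 14.1%.

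Other genes of the early response were read from the same fit, and none passed an adjusted p of 0.05. Shares of all tested genes at an unadjusted p under 0.05, against which each list is to be read, were 9.21% higher and 12.0% lower, and with the gene length offset 6.05% higher and 8.37% lower. Of 17 other early transcription factors tested, 2 were lower and 0 higher, a share near that of all tested genes. Klf4, a zinc finger factor of epithelial differentiation, was 29.6 and 51.1 CPM in saline and 23.1 and 19.3 CPM in treated libraries (log2 fold change −0.93, SE 0.29). Bhlhe40, a repressor linked to hypoxia and the clock, was 232 and 220 CPM against 102 and 173 CPM (−0.72, SE 0.26). Treated values of both lay below all saline values. Of the 17 genes, 6 were below and 2 above the saline range in both treated libraries, beside 27.8% and 27.4% of all tested genes. Hes1, a Notch target, and Ier5l had log2 fold changes of 0.30 and 0.27, with unadjusted p of 0.0846 and 0.136.

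Among 17 tested early genes that are not transcription factors, 2 were higher and 1 lower at the unadjusted threshold. Gadd45b, a growth arrest and stress gene, was 9.53 and 7.22 CPM in saline and 21.8 and 18.3 CPM in treated libraries (log2 fold change 1.26, SE 0.25, adjusted p = 0.138). Its relative Gadd45g was 9.59 and 12.1 CPM against 21.2 and 23.6 CPM (1.05, SE 0.22, adjusted p = 0.138). These differences were close in size to that of Atf3. Errfi1, an inhibitor of EGFR, was 242 and 342 CPM against 123 and 186 CPM (−0.92, SE 0.26). Ier3, a regulator of cell survival, had a log2 fold change of −0.47, with an unadjusted p of 0.0949.

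The feedback inhibitors turn off MAP kinases or clear early mRNAs. Of 18 tested, 7 were lower and 0 higher at the unadjusted threshold, with a median log2 fold change of −0.27. Spred2, an inhibitor of RAS to RAF signaling, was 123 and 126 CPM in saline and 58.5 and 67.7 CPM in treated libraries (−0.98, SE 0.14, adjusted p = 0.138). Zfp36l2, which binds AU-rich mRNAs, was 577 and 584 CPM against 241 and 320 CPM (−1.05, SE 0.18, adjusted p = 0.138). Its relative Zfp36 had overlapping groups and a log2 fold change of 0.48, and Nab2, a corepressor of EGR proteins, also overlapped at 0.25. Of 26 upstream kinases and SRF cofactors, 10 were lower and 0 higher, with a median of −0.31. Mrtfb, an actin-regulated SRF cofactor, was 50.6 ± 0.818 CPM in saline and 30.6 ± 1.79 CPM in treated libraries (SD, n = 2; −0.73, SE 0.14). Rps6ka3, which encodes the kinase RSK2, was 135 and 159 CPM against 86.6 and 99.9 CPM (−0.66, SE 0.15). With the gene length offset 8 of the 18 inhibitors and 8 of the 26 kinases and cofactors were lower at the unadjusted threshold, beside the 8.37% of all tested genes. The upstream kinases Map2k6 and Map2k7 had log2 fold changes of 0.52 and 0.11, with unadjusted p of 0.291 and 0.507.

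Other bZIP genes, whose products can pair with AP-1 or ATF proteins, included higher and lower values. Of 19 tested, 5 were higher and 3 lower at the unadjusted threshold, and with the gene length offset 1 was higher and 2 were lower. Atf5, a stress-responsive ATF gene, was 45.8 and 45.1 CPM in saline and 66.2 and 81.8 CPM in treated libraries (0.70, SE 0.16). Crem, a cAMP-responsive modulator, was 10.2 and 9.54 CPM against 20.3 and 14.9 CPM (0.83, SE 0.25). The groups did not overlap for either gene. Of the 19 genes, 7 were above and 5 below the saline range in both treated libraries, beside 27.4% and 27.8% of all tested genes. Atf7, a relative of Atf2, was 76.4 and 80.1 CPM against 45.1 and 48.9 CPM (−0.73, SE 0.13).

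Of 25 reported AP-1 target genes, 4 were higher and 2 lower at the unadjusted threshold, with a median of −0.07, and with the gene length offset 4 were higher and 0 lower, beside 6.05% and 8.37% of all tested genes. Ccl2, a monocyte chemokine, was 9.03 and 7.63 CPM in saline and 27.0 and 31.1 CPM in treated libraries (1.80, SE 0.21, adjusted p = 0.138). Mmp13, a collagenase, was 10.4 and 6.34 CPM against 22.1 and 19.6 CPM (1.31, SE 0.30, adjusted p = 0.138). Ccnd1, which encodes cyclin D1, was 1377 and 1667 CPM against 829 and 1161 CPM (−0.61, SE 0.23). Hbegf, an EGFR ligand, had a log2 fold change of −0.47 (SE 0.18). In the treated libraries Ccl2 and Mmp13 were above, and Ccnd1 and Hbegf below, the saline range. These genes were named for their small p. Of the 25, 5 were above and 5 below that range in both treated libraries, beside 27.4% and 27.8% of all tested genes.

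Heat shock genes, which also respond to tissue dissociation, were measured beside the early genes because the lungs were dissociated before lysis. Of 12 tested, 3 were higher and 0 lower at the unadjusted threshold, with a median log2 fold change of 0.23. With the gene length offset 4 were higher and 0 lower, beside 6.05% and 8.37% of all tested genes. Hspe1, a mitochondrial chaperonin, was 117 and 122 CPM in saline and 227 and 188 CPM in treated libraries (0.80, SE 0.15). Hspa1a, the inducible HSP70 gene, was low at 1.13 and 0.545 CPM against 4.15 and 2.35 CPM (1.94, SE 0.58). Hsp90ab1 and Hsp90aa1 overlapped, at −0.25 and −0.04. In all, 7 of the 12 were above the saline range in both treated libraries, beside 27.4% of all tested genes. The part of handling was not tested.

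**Figure D4:**
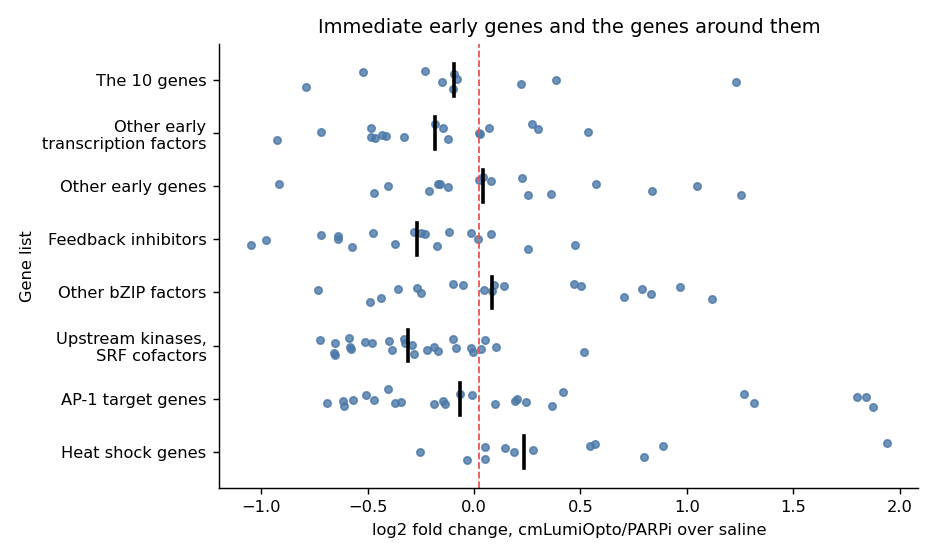
Log2 fold change, treated over saline, of each tested gene in the 10 members and in 7 lists of related genes, with the median of each group marked. Medians ran from −0.31 for upstream kinases and SRF cofactors to 0.23 for heat shock genes, beside 0.02 over all tested genes.

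The tested genes whose profile over the 4 libraries was most like that of Fos, by Euclidean distance between mean-centered log2 CPM, were Dgka (distance 0.0454), Chid1 (0.0693) and Efcab2 (0.0797). Those most like Jun were Hk3 (0.0234), Plek2 (0.0485) and Fer1l5 (0.0487). With 4 libraries such likeness is a description. For Fos it reflected 1 high library, treated replicate 1, in which Dgka was also highest at 22.8 CPM.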

How the data were processed

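Bulk poly(A) RNA-seq libraries of metastatic mouse lung (2 saline, 2 cmLumiOpto/PARPi) were used. The authors mapped reads with HISAT2 and deposited raw read counts per gene, with position and length. The labels name mm39 and the paper GRCm38. None of the 10 members had the same position in GRCm38 GENCODE M21 (0 of 10), so positions of genes are given as deposited and promoter windows in GRCm38.p6. The counting tool and its strand setting are not given in the sources used here.

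Counts were tested with edgeR 4.0.16 in R 4.3.3, an older edgeR than the authors named (TMM, glmQLFit with legacy TRUE, glmQLFTest, low counts removed by filterByExpr at min.count 10, Benjamini-Hochberg over 15167 genes, threshold 0.05). CPM used TMM factors, and log2 CPM a prior count of 2. The SE was the log2 fold change divided by the square root of F, and 95% intervals used the moderated degrees of freedom. Floors (3 counts) cover counting error only, and p-values cover the spread between libraries, which may be technical. Alternatives used DESeq2 1.42.0, edgeR's exact test, other normalizations and filters, a gene length offset (loess, span 0.5), a replicate block and each library left out.

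The members and lists were chosen with earlier results of these data known. All members were named, and from each list up to 2 genes per direction with the smallest unadjusted p, except that some items are not reported here. For Fos and Jun, the 3 nearest genes were named. Siglec5 was not found among the macrophage markers.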

Additional observations from a re-analysis of the deposited data

How the results depend on the processing

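At an adjusted p of 0.05, calls depended on the test and filter. Without a low count filter 2000 of 25435 tested genes were called, with 2 of the 10 members (Atf3 and Fosl2) and 30 list genes among them. DESeq2 called 981 of 15167 tested genes, 1 of the 10 members (Atf3) and 14 list genes. The edgeR exact test called 794 of 15167, 1 member (Atf3) and 13 list genes. The sources used here do not say what the replicate numbers stand for, and same-numbered libraries deviated together with a Spearman rho of 0.298 over genes. A replicate block called 1822 of 15167 tested genes, 2 of the 10 members (Atf3 and Fosl2) and 26 list genes. The block with a gene length offset called 1234 of 15167, 2 members (Atf3 and Fosl1) and 24 list genes. Leaving out 1 library called 0 to 31 genes, the most without saline replicate 1 (9 without saline replicate 2, 2 without treated replicate 1), and 0 members and 0 list genes.

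Upper quartile normalization moved the median log2 fold change of all genes from 0.02 to 0.13, and turned the sign of Jund (0.010), Egr1 (0.019), Ier2 (0.0069) and the members' median (0.0086). The replicate block turned Egr1 (0.0078). Leaving out 1 library moved the log2 fold change of Atf3 from 1.01 to 1.40, Fosl2 from −0.66 to −0.42, Fosl1 from −1.20 to −0.48, Fos from 0.011 to 0.66, Fosb from −0.81 to 0.16, Jun from −0.0056 to 0.45, Junb from −0.38 to 0.029, Jund from −0.14 to −0.077, Egr1 from −0.54 to 0.54 and Ier2 from −0.27 to 0.036. Over these, the median of members ranged from −0.24 to −0.03, and the Fos family share difference from −3.03 to −0.27 points. It was −4.58 points without division by length. The gene length offset moved the members' median from −0.10 to −0.25 (−0.28 with the block), beside −0.05 over all genes. It gave Atf3 0.955, Fos 0.11, Jun 0.059, Junb −0.40, Jund −0.42, Ier2 −0.43, Fosl2 −0.32 and Fosl1 −1.08. At an unadjusted p under 0.05 the offset gave Atf3, Fosl1 and Jund in place of Atf3, Fosl1 and Fosl2. The causes were not tested. Atf3, Fosl2, Fosl1 and Fos kept their direction in all 15 alternatives, although Fos came as low as 0.011. Fosb (55 to 114 counts) and Atf3 in saline (105 and 142) were the least deeply counted.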

Other observations

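Summed markers of other cells, measured for the cell makeup of the libraries, were as follows in CPM. Alveolar type 1 markers were 442 and 250 in saline and 1099 and 553 in treated libraries, endothelial markers 641 and 462 against 1115 and 516, and neutrophil markers 1290 and 538 against 796 and 1585. Macrophage markers were 1966 and 2025 against 1957 and 1574. T and NK cell markers were 56.5 and 21.1 against 130 and 34.1. The alveolar type 1 groups (higher in treated libraries) did not overlap, and those of endothelial, neutrophil, and T and NK cell markers did. Macrophage sums were lower in treated libraries without overlap, but treated replicate 1 (1957) lay just below saline replicate 1 (1966). Of 9 macrophage markers tested, 6 had a log2 fold change above 0, with a median of 0.13.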
